A study of Homo sapiens with 6 samples.

Results

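The SLC25 genes encode the mitochondrial carrier family, and their transcripts were followed with and without indomethacin, a cyclooxygenase inhibitor of the non-steroidal anti-inflammatory class, in AGS, an established cell line of human gastric adenocarcinoma. Members were the rows of the deposited count tables whose Ensembl identifier belongs to a protein-coding gene with a symbol made of SLC25A and digits only, which gave 48 of 60604 genes. The control group comprised 3 libraries labelled with 0 mM indomethacin and no time, and the indomethacin group (500IND) comprised 3 libraries given 0.5 mM for 24 h. All 6 libraries came from this line grown in medium with serum and antibiotics, and the labels do not tie the libraries of a group to separate cultures. The p-values therefore rest on the spread of these 3 libraries per group, which may be technical only. The series asks how such drugs act on gastric cancer cells and names the mitochondrial deacetylase sirtuin 3 as a shared target.

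Carriers of this family sit, with few exceptions, in the inner mitochondrial membrane, and each moves a small set of substrates between the cytosol and the matrix, usually by exchanging one compound for another. They supply oxidative phosphorylation with ADP and phosphate, carry citrate and malate in and out for lipid synthesis and redox shuttles, and bring in the nucleotides, cofactors, amino acids and iron that are used in the matrix. Many come in closely related copies that differ in the tissues in which they are used or in their regulation.

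Total counts per library lay between 17535435 and 23221077, and levels are given as CPM, counts scaled to a common library size with TMM factors. A count of 0 allows a level of up to 3 counts, or 0.129 to 0.171 CPM, a limit that covers counting error only. Mitochondrially encoded genes took 22.8 to 26.8% of counts in control and 16.7 to 19.7% in indomethacin libraries. Most of this was 1 ribosomal RNA, MT-RNR2, with 20.3 to 24.4% and 14.8 to 17.5%, in libraries depleted of ribosomal RNA. The carriers together took 0.165 to 0.172% and 0.156 to 0.172%. Among epithelial markers KRT8, KRT18, KRT19 and EPCAM were high in both groups (EPCAM 286 ± 7.73 CPM in control and 178 ± 10.2 with indomethacin, SD, n = 3), and CDH1 was lower and rose from 6.28 ± 1.54 to 17.9 ± 2.14 CPM. By contrast, the gastric markers MUC5AC, MUC6 and GKN1 were at most 0.388 CPM on average in either group. TFF1, a secreted gastric peptide, rose from 0.775 ± 0.645 to 25.2 ± 8.47 CPM and TFF2 from 0.0455 ± 0.0470 to 1.95 ± 0.625 CPM, whereas CLDN18, a gastric claudin, fell from 0.871 ± 0.116 to 0.0883 ± 0.0357 CPM. Of the leukocyte markers PTPRC and CD3E were near 0 and LYZ, the lysozyme gene, fell from 1102 ± 436 to 122 ± 3.83 CPM. The summed level of the 4 fibroblast markers was 4.12 to 6.44 CPM in control and 9.55 to 11.3 CPM with indomethacin, nearly all of it COL1A1, and that of the 3 endothelial markers was at most 0.523 CPM. The part of these shifts in the carrier results was not tested, except that leaving mitochondrially encoded and small structured RNAs out of the library sizes gave the same 10 higher and 16 lower carrier calls in number.

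Of the 48 carrier genes, 41 had enough counts to be tested and 7 did not. By edgeR's quasi-likelihood test with Benjamini-Hochberg adjustment over all 17200 genes tested and a threshold of 0.05, 10 carriers rose with indomethacin, 16 fell and 15 did not pass. The share that passed, 63.4%, was close to the 61.6% of all genes tested, so the number of changed carriers is not by itself a property of the family. Carriers called higher were 24.4% of those tested against 30.6% of all genes, and carriers called lower were 39.0% against 31.0%. Large changes were fewer: 7 carriers (17.1%) passed and changed at least 2-fold, 2 upwards and 5 downwards, against 33.0% of all genes. Of the 2 upwards, SLC25A34 lay at the edge of detection and reached the count filter only through its indomethacin libraries. The control and indomethacin libraries did not overlap for 29 carriers (70.7%), against 67.0% of all genes. The median log2 fold change was -0.17 over the carriers tested and 0.04 over all genes tested, and the median size of the change was 0.64 and 0.66.

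**Figure D1:**
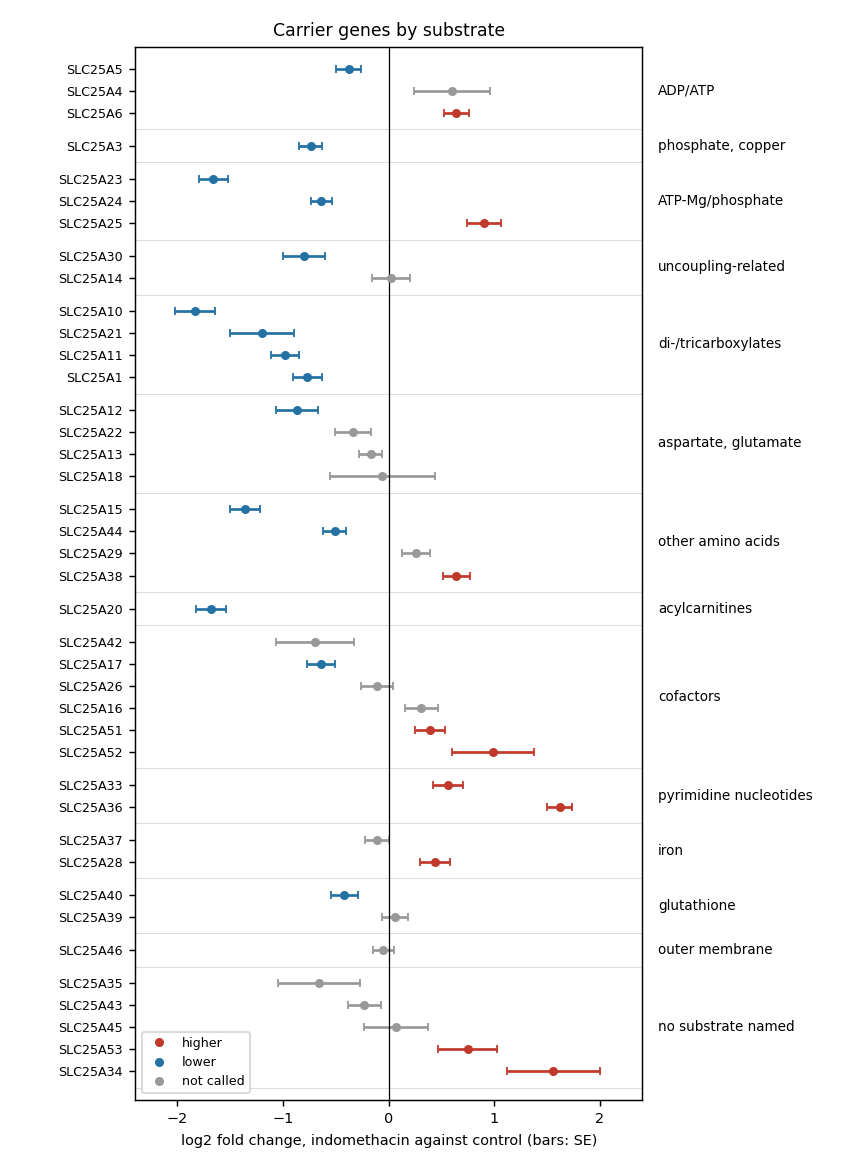
Log2 fold change of 40 of the 41 carrier genes tested, indomethacin against control, grouped by substrate (points are estimates of edgeR's quasi-likelihood fit to 3 against 3 libraries, bars the standard error, colours the call at an adjusted p of 0.05). The 4 di- and tricarboxylate carriers all lie to the left of 0 and both pyrimidine nucleotide carriers to the right, while the ADP/ATP and ATP-Mg/phosphate groups hold members on both sides.

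The starts of these genes help to see what the family shares and where its members differ. RefSeq promoter entries (GRCh38.p14, 250 bases before to 50 bases after a start) were found for 40 of the 48 carriers, in 50 entries. They were rich in G and C, with a median of 65.8% against 58.7% over all 34961 entries and a median of 26 CpG dinucleotides against 14. Motifs were searched as letters on both strands, 11 in all, with the carrier results already known, and a match is a description of the sequence only. The cyclic AMP response element TGACGTCA was in the entries of 3 carriers, SLC25A36, SLC25A33 and SLC25A25, each of which is among the 10 called higher, and in 1.85% of all entries. This match was singled out after the values were seen. Over all 11110 genes tested that have an entry, 29.4% were called higher, and over the 415 with the element 31.1% were. Letting its seventh base vary (TGACGTNA) found the same 3 carriers and 3.01% of all entries.

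The sequences around these starts are shown for the carriers on which the results turn. Capitals mark the cyclic AMP response element in the first 3, which are 150 bases up to the start of both pyrimidine nucleotide carriers and a 30-base window of SLC25A25, whose element lies in 1 of its 3 listed starts. Its first base is at position -117 in SLC25A36, -49 in SLC25A33 and -200 in SLC25A25, counted from the start with -1 as the base just before it.
SLC25A36, chr3:140941686-140941835, plus strand: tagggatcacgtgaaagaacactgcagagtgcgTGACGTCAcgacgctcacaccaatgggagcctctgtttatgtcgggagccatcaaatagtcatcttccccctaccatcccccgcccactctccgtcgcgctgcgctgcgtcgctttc
SLC25A33, chr1:9539315-9539464, plus strand: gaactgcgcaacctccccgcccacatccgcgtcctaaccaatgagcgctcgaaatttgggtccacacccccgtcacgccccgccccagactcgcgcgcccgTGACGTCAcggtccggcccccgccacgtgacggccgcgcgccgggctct
SLC25A25, chr9:128098296-128098325, plus strand: ggagggagcggTGACGTCAgccctgatctt

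The 2 abundant ADP/ATP carriers, which moved in opposite directions, differ at their starts. Windows of 30 bases show the TATA box (TATAAA, capitals) of SLC25A5 at position -27 and the CCAAT box (capitals) of SLC25A6 at position -84, on the minus strand. TATAAA was not found in the entry of SLC25A6 nor CCAAT in that of SLC25A5. TATAAA was in the entries of 3 carriers and 11.5% of all entries, and CCAAT in those of 21 carriers and 34.6% of all entries. Over the 1027 genes tested with TATAAA 34.0% were called higher and 34.3% lower. Over the 4746 with CCAAT it was 27.8% and 38.8%, and over all genes tested with an entry 29.4% and 36.3%.
SLC25A5, chrX:119468405-119468434, plus strand: cggctccccctaTATAAAtcggccatttgc
SLC25A6, chrX:1392180-1392209, minus strand: ctggcggcgcagCCAATgagcgcggcgcga

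Motifs of factors known for mitochondrial genes were looked for as well. The element of nuclear respiratory factor 1, taken as a pair of GCGC blocks with any 2 bases between them, was in the entries of 9 carriers and 8.34% of all entries. Among those 9 were SLC25A3, SLC25A10, SLC25A11, SLC25A12 and SLC25A24, which fell, and SLC25A51 and SLC25A52, which were called higher. SLC25A4 did not pass and SLC25A31 was not tested. Over all 1952 genes tested with this element 27.7% were called higher and 38.4% lower, against 29.4% and 36.3% of all genes tested with an entry. A form of it with a fixed centre, GCATGCGC, was in none of the 40 carriers with an entry and in 3.06% of all entries. An ETS element, CCGGAAG, was in the entries of 11 carriers and 10.3% of all entries, and the element of the oestrogen-related receptors, TCAAGGTCA, was in none and in 0.355%. The E-box CACGTG was in 9 carriers and 7.27% of all entries, the composite element TGATGNAA read by ATF4 in SLC25A11 and 3.62%, and the GC box GGGCGG in 30 carriers and 45.0%. These percentages count entries, not genes. Of the 50 carrier entries, 9 held the paired GCGC blocks, 11 the ETS element, 9 the E-box and 33 the GC box. The cyclic AMP response element was in 3, TATAAA in 4 and CCAAT in 22 of them. Whether carriers differ from all entries was not tested. Matches of the first element (SLC25A3, SLC25A11, SLC25A10; those of SLC25A11 overlap each other) and of the ETS element (SLC25A20) are shown in capitals in 30-base windows of 4 carriers that fell.
SLC25A3, chr12:98593462-98593491, plus strand: cccggaacgcGCGCCTGCGCagaacgaatc
SLC25A11, chr17:4940047-4940076, minus strand: gcctttgcgctgcGCGCCTGCGCCCGCGCc
SLC25A10, chr17:81712254-81712283, plus strand: ctagcggtcccgcccccgggGCGCGCGCGC
SLC25A20, chr3:48898957-48898986, minus strand: cggggccgaggCCGGAAGcagccccgggcg

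**Figure D2:**
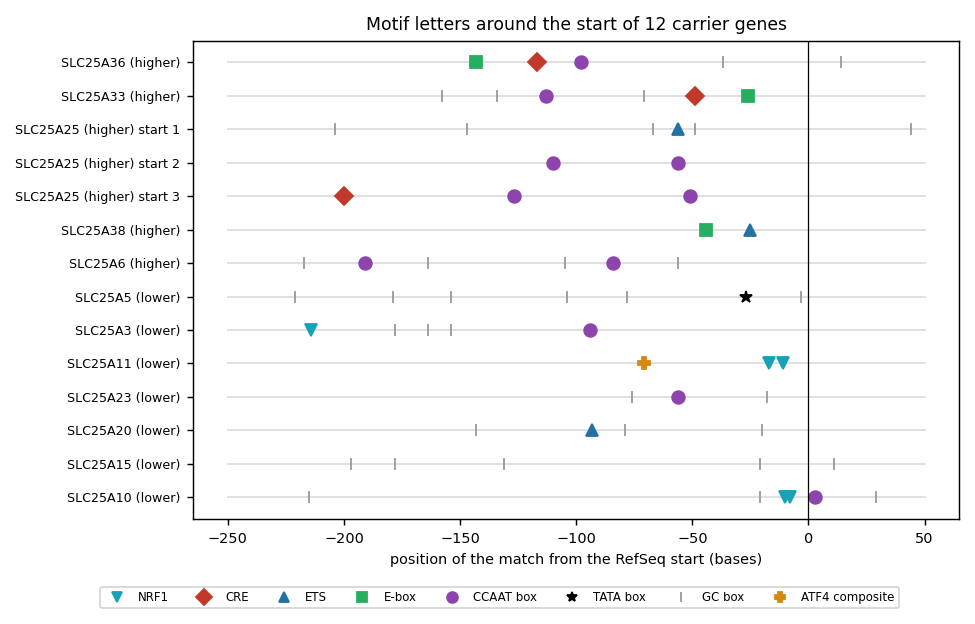
Position of motif matches from 250 bases before to 50 bases after the RefSeq start of 12 carrier genes, chosen after their values were seen, with the call of each gene (the 3 listed starts of SLC25A25 are numbered along the gene). The cyclic AMP response element appears in SLC25A36, SLC25A33 and the start of SLC25A25 that lies last along the gene, and the TATA box only in SLC25A5 among these 12.

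The ADP/ATP carriers bring ADP into the matrix and let ATP out, and they exchanged places in these cells. SLC25A5, the form of dividing cells, led in control and fell with indomethacin, while SLC25A6, the widely expressed form, rose above it. SLC25A4, the form of heart and muscle, was hardly present and did not pass, and SLC25A31, the form of the germ line, had 1 count in all 6 libraries. SLC25A5 (chromosome X, 119468422 to 119471396, plus strand) stood at 268, 248 and 277 CPM in the control libraries 1 to 3 and at 182, 193 and 235 CPM in the indomethacin libraries 1 to 3. The groups did not overlap, and the fall was small (log2 fold change -0.38, SE 0.12; adjusted p by edgeR = 0.012). With upper-quartile factors, and also without indomethacin library 2, its adjusted p was 0.056. SLC25A6 (chromosome X, 1386152 to 1392113, minus strand) stood at 203, 214 and 230 CPM in control and at 300, 383 and 324 CPM with indomethacin (log2 fold change 0.64, SE 0.12; adjusted p by edgeR = 0.00028). All 3 indomethacin libraries lay above all 3 controls. SLC25A4 had 1.03, 0.810 and 0.610 CPM in control and 1.28, 0.945 and 1.5 CPM with indomethacin, overlapping groups at about 1 CPM. The SLC25A6 gene lies in the pseudoautosomal region that X and Y share and has 1 row in the tables, on X. Both abundant forms have processed copies elsewhere in the genome, whose own rows held 0.312% of the counts of SLC25A5 and 0.0687% of those of SLC25A6, although how reads with several positions were treated is not given.

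Within a library the shift is plain, because a ratio of 2 genes does not depend on library scaling. Per kilobase of exon, SLC25A5 took 56.9, 53.6 and 54.6% of the ADP/ATP carrier counts in control and 37.7, 33.4 and 42.0% with indomethacin. SLC25A6 took 43.0, 46.3 and 45.4% and then 62.2, 66.5 and 57.9%. The log2 ratio of SLC25A5 to SLC25A6 moved from 0.29 ± 0.10 to -0.73 ± 0.27 (SD, n = 3), a difference of -1.02 with no overlap, for which a two-sided exact permutation test gave p = 0.1, the smallest that 3 against 3 libraries allow. Adjusted over the 13 carrier pairs compared it was 0.163, as for each of the 8 pairs that did not overlap, so no pair could pass 0.05 by this test. The summed level of the 4 genes was 481 ± 23 CPM in control and 541 ± 49.9 CPM with indomethacin, with the first indomethacin library at 484 CPM inside the control range of 464 to 507 CPM.

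**Figure D3:**
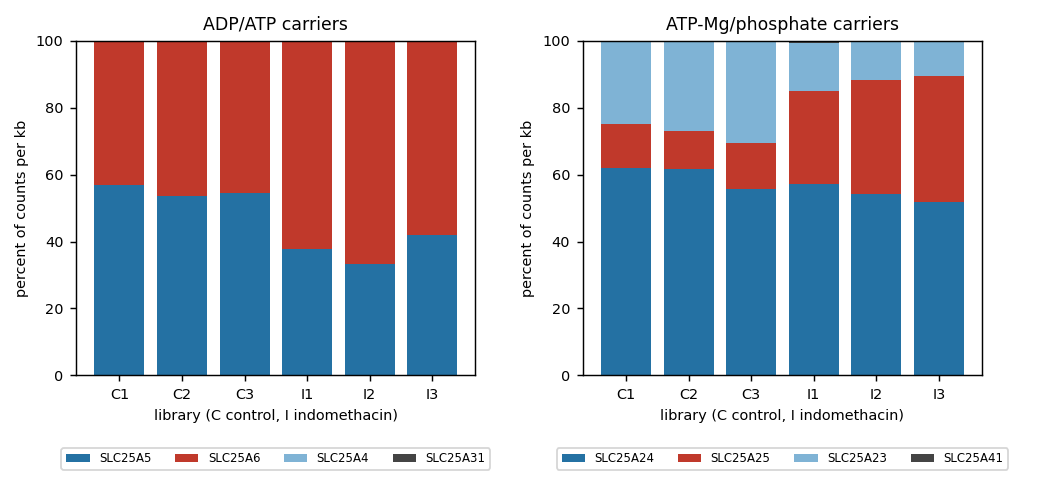
Share of each ADP/ATP carrier (left) and each ATP-Mg/phosphate carrier (right) in the counts per kilobase of its group, in percent, for the 3 control (C1 to C3) and 3 indomethacin (I1 to I3) libraries. SLC25A6 goes from 43.0 to 46.3% in control to 57.9 to 66.5% with indomethacin, and SLC25A25 from 11.3 to 13.5% to 27.6 to 37.7%.

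SLC25A3, which brings in the phosphate that ATP synthase uses and also copper, had more counts than any other carrier in control. It stood at 378, 335 and 381 CPM in control and 220, 202 and 230 CPM with indomethacin, 1.67-fold lower (log2 fold change -0.74, SE 0.11; adjusted p by edgeR = 3.6e-05). Every indomethacin library lay below every control. Per kilobase of the exon union, on which levels of different genes are compared, the order in control was SLC25A5 (170 ± 9.26 CPM per kb), SLC25A6 (139 ± 8.76), SLC25A3 (40.9 ± 2.89) and SLC25A1 (32.5 ± 3.40), and no neighbours in that order overlap within 1 SD. With indomethacin it was SLC25A6 (216 ± 27.5), SLC25A5 (131 ± 18.2), SLC25A3 (24.4 ± 1.58) and SLC25A39 (23.1 ± 2.76), the last 2 within their spread of each other. The union of SLC25A3 is 8896 bases and that of SLC25A5 1555 bases, so a gene with long alternative exons appears lower on this scale. SLC25A3, SLC25A5 and SLC25A6 together made up 45.3 to 50.3% of the summed carrier CPM in the 6 libraries.

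The ATP-Mg/phosphate carriers set the adenine nucleotide content of the matrix and respond to calcium, and their mixture changed. SLC25A23 and SLC25A24 fell and SLC25A25 rose. SLC25A23 (chromosome 19, 6436079 to 6465203, minus strand) went from 29.3, 29.2 and 36.7 CPM to 11.2, 9.84 and 8.95 CPM, 3.17-fold lower (log2 fold change -1.66, SE 0.14; adjusted p by edgeR = 2.5e-07). SLC25A24, with most counts of the group, went from 101, 93.5 and 92.7 CPM to 60.9, 62.9 and 60.4 CPM (log2 fold change -0.64, SE 0.10; adjusted p by edgeR = 6.7e-05). SLC25A25 (chromosome 9, 128068201 to 128109245, plus strand), of which 1 of the 3 listed starts carries the cyclic AMP response element shown above, went from 18.7, 15.1 and 19.8 CPM to 25.9, 35.2 and 38.9 CPM (log2 fold change 0.90, SE 0.16; adjusted p by edgeR = 0.00022). None of these 3 overlapped between groups, nor did 67.0% of all genes tested. Per kilobase SLC25A24 stayed the leading form, with 59.8 ± 3.48% of the group in control and 54.4 ± 2.83% with indomethacin, while SLC25A23 went from 27.2 ± 2.92% to 12.2 ± 2.03% and SLC25A25 from 12.6 ± 1.17% to 33.2 ± 5.15%. The log2 ratio of SLC25A24 to SLC25A25 moved by -1.53 and that of SLC25A23 to SLC25A24 by -1.02, neither with overlap. Summed over the group the level went from 146 ± 6.6 to 105 ± 5.77 CPM, and SLC25A41, which lacks the calcium-binding part, had 8 counts in control and 3 with indomethacin and was not tested. SLC25A25 shares 665 of 5926 exonic bases with its antisense gene, and the counting is not stated to use strand.

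Carriers of di- and tricarboxylates link the citric acid cycle to the cytosol, and all 4 of them fell, with a median log2 fold change of -1.09. Of all genes tested 31.0% were called lower, and their median was 0.04. SLC25A10, the dicarboxylate carrier that exchanges malate or succinate for phosphate, had the lowest fold change of all carriers tested. It stood at 9.61, 8.28 and 9.29 CPM in control and 2.52, 2.19 and 2.94 CPM with indomethacin, 3.56-fold lower (log2 fold change -1.83, SE 0.19; adjusted p by edgeR = 2.1e-06). SLC25A11, the oxoglutarate/malate carrier of the malate-aspartate shuttle, went from 39.1, 32.5 and 40.8 CPM to 17.2, 19.0 and 20.8 CPM (log2 fold change -0.98, SE 0.13; adjusted p by edgeR = 1.5e-05). The citrate carrier SLC25A1, which exports citrate for fatty acid and sterol synthesis, went from 66.9, 57.3 and 70.4 CPM to 30.3, 43.0 and 40.5 CPM (log2 fold change -0.77, SE 0.14; adjusted p by edgeR = 0.00022). SLC25A21, the oxodicarboxylate carrier of lysine breakdown, fell at a low level, from 2.62 ± 0.189 to 1.15 ± 0.353 CPM (log2 fold change -1.20, SE 0.30; adjusted p by edgeR = 0.0035). In none of the 4 did the groups overlap, which held for 67.0% of all genes tested. The log2 ratio of SLC25A10 to SLC25A11 was lower with indomethacin, without overlap (-2.13 ± 0.08 in control and -2.98 ± 0.19 with indomethacin; exact permutation p = 0.1). SLC25A10 shares 1221 of its 2621 exonic bases with another gene model on the same strand that had 0 counts, and SLC25A21 shares 1442 of 4757 with PAX9 on the other strand, so their levels are less certain than those of SLC25A1 and SLC25A11.

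The enzymes on either side of these carriers were counted too, from lists chosen with results of these data known. For comparison, 31.0% of all genes tested were called lower and 30.6% higher. Of 4 enzymes of the malate-aspartate shuttle 3 fell, among them MDH1 (cytosolic malate dehydrogenase, log2 fold change -1.36, SE 0.11; adjusted p by edgeR = 1.3e-07) and GOT2 (mitochondrial aspartate aminotransferase, -1.14, SE 0.10; 4.9e-07). The cytosolic partner GOT1 rose (1.40, SE 0.14; 1.1e-06). A further list held 5 genes that make citrate (CS), split it (ACLY), make fatty acids (ACACA, FASN) or use malate (ME1), and 4 fell. Among these were ACLY, which splits exported citrate (-1.65, SE 0.11, adjusted p by edgeR = 2.5e-08), and CS, citrate synthase (-0.97, SE 0.11, adjusted p by edgeR = 3.8e-06). ME1, the cytosolic malic enzyme, rose at a low level, from 1.36 ± 0.461 to 3.43 ± 1.44 CPM.

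The aspartate/glutamate exchangers SLC25A12 and SLC25A13, which complete the malate-aspartate shuttle, did not give the same call. SLC25A12 stood at 9.71, 10.9 and 10.3 CPM in control and 7.37, 5.17 and 4.33 CPM with indomethacin (log2 fold change -0.87, SE 0.20; adjusted p by edgeR = 0.0016). SLC25A13, which was higher per kilobase in both groups, stood at 73.5, 65.9 and 68.7 CPM and then at 69.2, 61.1 and 54.8 CPM, and did not pass (-0.17, SE 0.11; adjusted p by edgeR = 0.21). The log2 ratio of SLC25A12 to SLC25A13 went from -3.47 ± 0.16 to -4.20 ± 0.22 with no overlap (exact permutation p = 0.1). The glutamate carriers SLC25A22 and SLC25A18 did not pass either. SLC25A22 had 8.93, 8.23 and 9.76 CPM in control and 6.13, 7.36 and 7.81 CPM with indomethacin, without overlap but with an edgeR adjusted p of 0.091. SLC25A18 was under 1 CPM in 5 of the 6 libraries and at 1.44 CPM in indomethacin library 3, and its ratio to SLC25A22 overlapped between the groups (exact permutation p = 1).

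Carriers of other amino acids split. SLC25A15, which exchanges ornithine and citrulline in the urea cycle and for polyamine and proline synthesis, fell 2.56-fold, from 25.4, 23.9 and 22.9 CPM to 10.0, 10.2 and 7.81 CPM (log2 fold change -1.36, SE 0.14; adjusted p by edgeR = 1.6e-06). SLC25A38, a glycine carrier that supplies heme synthesis, rose, with 24.2, 31.7 and 30.3 CPM in control and 39.4, 46.8 and 48.7 CPM with indomethacin (log2 fold change 0.64, SE 0.13; adjusted p by edgeR = 0.00067). Neither overlapped between groups, nor did 67.0% of all genes tested. SLC25A44, a carrier of branched-chain amino acids, fell from 43.7 ± 4.27 to 30.6 ± 1.49 CPM (-0.51, SE 0.11; adjusted p by edgeR = 0.0013), and SLC25A29, a carrier of basic amino acids, had 21.4 ± 2.04 and 25.7 ± 3.37 CPM and did not pass. SLC25A2, the second ornithine carrier, had 16 counts in all and was not tested. In the listed enzymes of glutamate, ornithine and proline metabolism 3 of 6 rose and 2 fell, against 30.6% and 31.0% of all genes tested. PYCR1, which makes proline, rose by 0.77, while OAT, ornithine aminotransferase (-1.66, SE 0.12; 3.7e-08), and ALDH18A1, which starts proline and ornithine synthesis (-1.50), fell.

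SLC25A20 is the carnitine/acylcarnitine carrier, by which long-chain fatty acids enter the matrix for oxidation. It stood at 22.2, 20.9 and 25 CPM in control and 7.51, 6.76 and 6.97 CPM with indomethacin, with little spread within a group, and fell 3.20-fold (log2 fold change -1.68, SE 0.14; adjusted p by edgeR = 1.7e-07). The other genes of the carnitine shuttle were mixed, with 2 of 5 higher and 2 lower, against 30.6% and 31.0% of all genes tested. CPT1A, the outer membrane enzyme that makes acylcarnitines, rose from 70.9 ± 10.6 to 103 ± 10.6 CPM, whereas CPT2, which remakes acyl-CoA inside, fell from 17.1 ± 1.74 to 9.71 ± 1.46 CPM. CPT1C, a brain-type relative, fell from 4.91 ± 0.526 to 0.838 ± 0.111 CPM (log2 fold change -2.55, SE 0.26, adjusted p by edgeR = 1.7e-06). CRAT, carnitine acetyltransferase, was called higher, with 0.264 ± 0.112 CPM in control and 0.604 ± 0.169 CPM with indomethacin. It is counted among the 2 higher but reached the count filter only through its indomethacin libraries, so its call gives no support for a rise.

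The pyrimidine nucleotide carriers SLC25A36 and SLC25A33 supply the matrix with nucleotides for mitochondrial DNA and RNA synthesis, and both rose. SLC25A36 (chromosome 3, 140941830 to 140980995, plus strand) had the highest fold change of all carriers tested. It stood at 65.6, 72.4 and 54.7 CPM in control and 206, 200 and 187 CPM with indomethacin, 3.08-fold higher (log2 fold change 1.62, SE 0.12; adjusted p by edgeR = 5.9e-08). SLC25A33 (chromosome 1, 9539465 to 9585173, plus strand) stood at 16.6, 13.4 and 14.7 CPM and then at 21.1, 20.1 and 24.8 CPM (log2 fold change 0.56, SE 0.14; adjusted p by edgeR = 0.0026). In both genes every indomethacin library lay above every control. Beside this, 30.6% of all genes tested were called higher and 67.0% did not overlap. The log2 ratio of SLC25A33 to SLC25A36 went from -0.68 ± 0.29 to -1.75 ± 0.23 without overlap (exact permutation p = 0.1). Their summed level went from 69.5 to 85.9 CPM in the control libraries to 211 to 227 CPM in the indomethacin libraries. In the GENCODE transcripts 12.3% of the 100-base windows of SLC25A33 also occur in ENSG00000226268, and none of those of SLC25A36 occur in another gene.

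**Figure D4:**
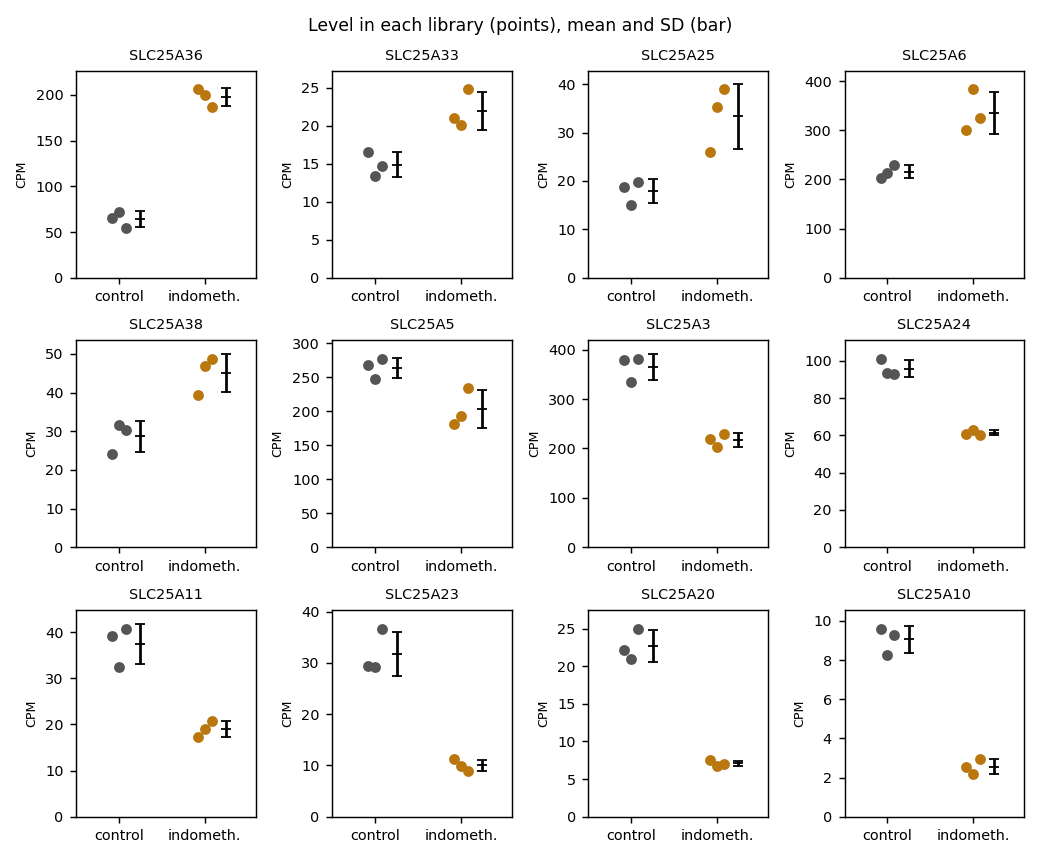
Level in CPM (TMM-scaled) of 12 carrier genes, chosen after their values were seen, in each of the 3 control and 3 indomethacin libraries (points), with mean and SD (bars); each panel has its own axis from 0. SLC25A36 lies at 54.7 to 72.4 CPM in control and 187 to 206 CPM with indomethacin, and SLC25A20 at 20.9 to 25 and 6.76 to 7.51 CPM.

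Among the cofactor carriers 2 of 7 tested were called higher, 2 lower and 3 did not pass, while 30.6% of all genes tested were called higher and 31.0% lower. SLC25A17, the carrier of the peroxisome for coenzyme A, FAD and NAD and so an exception to the mitochondrial rule, fell from 25.4, 22.3 and 25.8 CPM to 14.3, 15.4 and 17.5 CPM (log2 fold change -0.64, SE 0.13; adjusted p by edgeR = 0.00068). Both NAD carriers were called higher. SLC25A51 stood at 11.9, 13.2 and 14.2 CPM and then at 17.5, 15.0 and 19.1 CPM (0.39, SE 0.14, adjusted p by edgeR = 0.026). Its near copy SLC25A52 stood at 0.785, 0.640 and 0.328 CPM and then at 0.998, 1.29 and 1.20 CPM (0.99, SE 0.39; adjusted p by edgeR = 0.042). The calls of both NAD carriers were near the threshold. That of SLC25A51 was lost without control library 1 or 2 (0.16 and 0.097) and without indomethacin library 1 or 3 (0.066 and 0.093). SLC25A52 passed without control library 1 but not without any of the other 5 libraries, where its adjusted p was 0.057 to 0.18. In addition, 12.4% of the 100-base windows of SLC25A52 transcripts also occur in SLC25A51, so the counts of SLC25A52 are uncertain. With 16, 15 and 7 counts in control, SLC25A52 would not have reached the count filter without its indomethacin libraries. Its call therefore gives no support for a rise. The coenzyme A carriers did not pass: SLC25A42 stood at 2.50, 2.35 and 1.92 CPM in control and 0.665, 1.34 and 2.22 CPM with indomethacin, and its relative SLC25A16 at 8.63, 8.32 and 7.65 and then 10.4, 11.3 and 8.71 CPM. SLC25A26, which brings in S-adenosylmethionine, had 15.9 ± 2.47 and 14.7 ± 1.65 CPM. SLC25A32, the folate and FAD carrier, had 29 counts in control and 17 with indomethacin and was not tested; 2547 of its 3654 exonic bases are shared with a second gene model on the same strand, so its counts may understate it.

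Around the cofactor carriers, 3 of 5 genes of folate and one-carbon metabolism rose, among them MTHFD1L (log2 fold change 0.96, SE 0.11; adjusted p by edgeR = 4.1e-06) and MTHFD2 (1.37, SE 0.15; 2.8e-06), both enzymes of the mitochondrial one-carbon pathway, and the plasma membrane folate carrier SLC19A1 fell (-0.93). Of 9 genes tested that make NAD, thiamine pyrophosphate or coenzyme A, 3 rose and 2 fell. Beside both lists, 30.6% of all genes tested were called higher and 31.0% lower. NAMPT, the rate-limiting enzyme of NAD salvage, rose, from 81.1 ± 6.23 up to 389 ± 30.5 CPM (log2 fold change 2.26, SE 0.11; adjusted p by edgeR = 1.7e-09), and NADK2, the mitochondrial NAD kinase, rose by 1.45. The pantothenate kinases PANK1 and PANK2, which start coenzyme A synthesis, fell (-1.78 and -0.76). PANK3, with more counts than either, had 192 ± 2.34 and 189 ± 16.4 CPM and did not pass, and COASY, which completes that synthesis, rose by 0.37.

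The iron carriers SLC25A28 (mitoferrin 2) and SLC25A37 (mitoferrin 1) feed heme and iron-sulfur cluster synthesis. SLC25A28 rose, from 10.7, 8.83 and 10.4 CPM up to 12.9, 13.7 and 14.2 CPM (log2 fold change 0.44, SE 0.14; adjusted p by edgeR = 0.015), and without control library 2 this was 0.12. SLC25A37 had 31.0, 31.9 and 35.7 CPM in control and 31.3, 28.9 and 31.0 CPM with indomethacin and did not pass. The log2 ratio of SLC25A28 to SLC25A37 went from 0.41 ± 0.17 to 0.97 ± 0.10 without overlap (exact permutation p = 0.1). Of 8 listed genes of iron-sulfur and heme synthesis 6 fell, against 31.0% of all genes tested. Among the 6 was NFS1, the cysteine desulfurase (-1.47, SE 0.14, adjusted p by edgeR = 6.5e-07). The scaffold gene ISCU (1.08, SE 0.10; 4.8e-07) and ALAS1, the first enzyme of heme synthesis (0.96), rose.

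Of the glutathione carriers, SLC25A40 fell from 17.4, 18.5 and 17.6 CPM to 14.7, 11.8 and 13.3 CPM (log2 fold change -0.42, SE 0.13; adjusted p by edgeR = 0.013; 0.059 without indomethacin library 2), and SLC25A39 stood at 76.7, 72.9 and 85.1 CPM and then at 70.3, 88.4 and 85.4 CPM and did not pass. Their ratio overlapped between the groups. The relatives of the uncoupling proteins, which let anions or protons through, were SLC25A30, lower with indomethacin (14.9, 12.1 and 11.1 CPM against 9.55, 6.36 and 5.89 CPM; log2 fold change -0.80, SE 0.20; adjusted p by edgeR = 0.0029), and SLC25A14, which stood at 6.67, 5.76 and 6.47 CPM and at 5.51, 7.11 and 6.49 CPM and did not pass. SLC25A27 had 0 counts in all 6 libraries, which allows up to 0.171 CPM in the shallowest of them. SLC25A46, a member of the outer membrane that acts in fission and lipid transfer, stood at 44.9, 46.1 and 40.3 CPM and at 43.3, 41.5 and 41.9 CPM (-0.05, SE 0.10; adjusted p by edgeR = 0.70).

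For 7 members no substrate is named here, and 5 of them were tested. SLC25A34 stood higher with indomethacin at the edge of detection, at 0.294, 0.256 and 0.188 CPM and then 0.903, 0.696 and 0.601 CPM. It had 16 counts in control (6, 6 and 4) and 43 with indomethacin (19, 14 and 10). The log2 fold change was 1.56 (SE 0.44, adjusted p by edgeR = 0.0072). SLC25A34 reached the count filter only through the indomethacin libraries, where it was high, so this call gives no support for a rise. SLC25A53 rose from 1.72, 1.62 and 1.69 CPM to 2.47, 3.68 and 2.28 CPM (0.75, SE 0.28; adjusted p by edgeR = 0.031), a call that leaving out any single control library or indomethacin library 2 removed (adjusted p = 0.074 to 0.18). SLC25A35, SLC25A43 and SLC25A45 did not pass, with 0.703 ± 0.349, 11.9 ± 2.15 and 4.07 ± 0.980 CPM with indomethacin and 1.13 ± 0.0579, 14.0 ± 1.01 and 3.92 ± 1.80 CPM in control. SLC25A48 had 1 count in all, and SLC25A47 had 5 counts in control and 35 with indomethacin and did not reach the count filter.

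**Figure D5:**
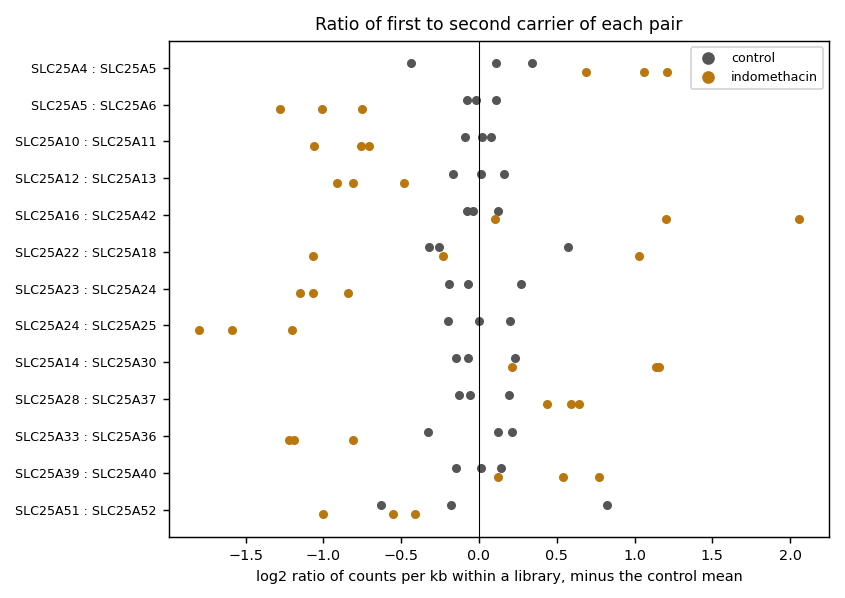
Log2 ratio of counts per kilobase between the carriers of each of the 13 pairs compared, in each library, minus the mean of the 3 control libraries (grey control, ochre indomethacin). In 8 pairs the libraries of the groups do not overlap, the widest shift being that of SLC25A24 to SLC25A25 at -1.53, and SLC25A22 to SLC25A18 shows the groups interleaved.

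Across the 13 pairs of related carriers, then, 8 ratios did not overlap between the groups and 5 did. Of all single genes tested 67.0% did not overlap, and ratios of unrelated genes were not computed. The count is therefore not by itself a property of related carriers. Besides those given above, the log2 ratio of SLC25A4 to SLC25A5 was 0.99 higher with indomethacin and did not overlap, a ratio that rests on 53 and 71 counts of SLC25A4. Overlap was seen for SLC25A16 to SLC25A42 (1.12), SLC25A14 to SLC25A30 (0.84) and SLC25A39 to SLC25A40 (0.48), each with an exact permutation p of 0.2, and for SLC25A51 to SLC25A52 (-0.66, p = 0.3). SLC25A15 to SLC25A2 was not compared because SLC25A2 had too few counts. The test cannot separate these pairs by p, so the sizes and the overlap are given as descriptions.

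Transport proteins outside the symbol rule were set beside the family. Of the carrier family proteins with other names UCP2, an uncoupling protein relative, fell from 5.89 ± 1.12 to 1.18 ± 0.301 CPM (log2 fold change -2.33, SE 0.27; adjusted p by edgeR = 4.6e-06) and MTCH2, an outer membrane insertase, from 117 ± 5.22 to 51.7 ± 2.75 CPM (-1.18, SE 0.10; 2.8e-07), with 0 of 4 tested higher. In the pyruvate and serine carriers of other families 5 of 7 fell, with MPC2 and SFXN1 each at -1.05, and MPC1, the partner of MPC2 in the pyruvate carrier, rose by 0.52. The outer membrane channels VDAC1 and VDAC3 fell (-0.52 and -1.25) and VDAC2 rose (0.27, SE 0.11; adjusted p by edgeR = 0.043). Of 8 genes of mitochondrial calcium uptake and release 5 fell and 0 rose, led by MCUB (-1.52) and MICU2 (-0.73). Of 10 genes that import carrier proteins into the inner membrane 6 fell, led by TIMM8B (-1.40) and AGK (-0.85), and the chaperone gene TIMM9 rose (0.38). These counts stand against 31.0% of all genes called lower and 30.6% called higher and were given no test of their own. In bulk RNA, fewer cells of a type and less RNA per cell cannot be told apart, and transcript levels say nothing of the amount of carrier protein.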

How the data were processed

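The authors deposited a table of raw counts per gene for each library, with exon coordinates, strand and length, per the file headers. Per the labels' protocols, libraries were of stranded total RNA depleted of ribosomal RNA and were read from both ends on a NovaSeq. The submitters' processing notes name build hg38, bcl2fastq, FastQC 0.11.7, cutadapt 1.16, HISAT2 2.1.0, SAMtools, featureCounts and DESeq2. Their settings, the strand option, the handling of reads with several positions and the annotation are not given in the sources used here, which bears on overlapping and copied genes. Lines of 1 broken gene, 3 of 60607 per table, were left out.

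Gene names were looked up by identifier, and types were those of GENCODE 29. edgeR 4.0.16 (R 4.3.3) kept 17200 genes with filterByExpr, scaled them by TMM and tested indomethacin against control by glmQLFTest with group as the only term, adjusted by Benjamini-Hochberg over all genes. CPM are TMM-scaled. Standard errors were derived from the fold change and its test statistic. Ratios of related carriers used counts per kb with a prior of 0.5 counts. Alternatives were DESeq2 1.42.0, limma-voom (limma 3.58.1), RLE and upper-quartile factors, library sizes without mitochondrial and small RNAs, no filter, a filter of 1 CPM in 3 libraries, a replicate block, a prior of 5 counts for the ratios, and each library left out. The scripts were tested on simulated data in which far fewer genes changed than were called here. That test therefore does not cover the scaling or the rate of false calls in these data. All 6 libraries were kept as separate, since pairs within a group differed beyond counting noise (chi-square over degrees of freedom 7.91 to 25.9).

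Values per library were given for the 4 largest rises and falls among members that passed with a mean of 5 CPM or more and no overlap, the 4 with most counts per kb, up to 2 per substrate group with the smallest adjusted p, and both members of each pair. Of each related list up to 2 genes with the smallest adjusted p are named, and those that moved against it. Of the carriers tested 1, counted in the totals, is not reported by name here, nor are some related genes. Other genes named were chosen after their values were seen. The members, lists and motifs were chosen with earlier results of these data known. Promoter entries were RefSeq's on GRCh38.p14, and 41 of the 50 carrier entries matched a GENCODE transcript in the 30 bases after the start.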

Additional observations from a re-analysis of the deposited data

How the results depend on the processing

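Under the 8 other settings of tool, scaling, filter and block, and with each library left out, carriers called higher numbered 7 to 12 and carriers called lower 13 to 18, and 9625 to 11722 genes differed in all; with single libraries left out the ranges were 7 to 10, 13 to 18 and 9625 to 10520. Of the 26 carriers called, 19 kept their call in every setting in which they were tested. SLC25A34 is counted among these 19 but was not tested with the filter of 1 CPM. The calls of SLC25A5 and SLC25A40 were lost with upper-quartile factors (adjusted p = 0.056 and 0.060) and without indomethacin replicate 2 (0.056 and 0.059), and SLC25A28, SLC25A51, SLC25A52 and SLC25A53 lost theirs in 2 to 8 settings each. Of the 15 that did not pass, SLC25A13, SLC25A16, SLC25A29, SLC25A35, SLC25A42 and SLC25A43 passed in at least 1 setting, with lowest adjusted p-values of 0.045, 0.033, 0.019, 0.040, 0.015 and 0.049. The pairing check gave correlations of same-numbered libraries of 0.0233, 0.0117 and 0.132, so the numbers were not taken to pair them. With the replicate block 9 carriers were higher and 16 lower, and SLC25A52 alone lost its call (adjusted p = 0.054); DESeq2 lost the same call (0.085). The median over all genes moved by 0.12 (log2) with upper-quartile factors, and carrier fold changes moved up with it. With no filter that median moved by 0.15 over the larger set of genes, while carrier fold changes came out lower (SLC25A36 1.516 in place of 1.622). Directions turned only among carriers that did not pass. With no filter SLC25A14, SLC25A39 and SLC25A45 came to -0.090, -0.049 and -0.036, and with upper-quartile factors SLC25A18, SLC25A26, SLC25A37 and SLC25A46 to 0.053, 0.004, 0.006 and 0.067. With a library left out SLC25A14 ranged from -0.086 to 0.090, SLC25A18 from -0.794 to 0.337, SLC25A39 from -0.034 to 0.129, SLC25A45 from -0.191 to 0.447, and the ratio of SLC25A22 to SLC25A18 from -0.648 to 0.402. The cause was not tested. Depth limits the carriers under about 1 CPM, where 3 counts stand for 0.129 to 0.171 CPM.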

Other observations

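SLC25A47, a carrier first known from liver, was left out of the test by its low counts and stood apart all the same. It had 0.0490, 0.171 and 0 CPM in the control libraries and 0.428, 0.746 and 0.661 CPM in the indomethacin libraries, without overlap. With no filter on low counts edgeR gave a log2 fold change of 2.80 (SE 0.75, adjusted p = 0.00092). Adjusted p-values of that fit are not comparable with the others given here. For SLC25A23 edgeR's adjusted p was 1.2e-30 with no filter and 2.5e-07 in the main fit. SLC25A47 was singled out after its values were seen, so its p-value is no support for a rise.

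Among copies of carrier genes 2 are given, chosen after their values were seen. SLC25A39P1, a processed pseudogene on chromosome 1 (202796030 to 202797094), had 4, 18 and 9 counts in control and 45, 37 and 42 with indomethacin (log2 fold change 2.18, SE 0.41; edgeR adjusted p = 0.00041), while SLC25A39 itself, on chromosome 17, did not pass (0.06, SE 0.12). SLC25A5P5 on chromosome 7 had 14, 23 and 14 counts and then 10, 5 and 3 (-1.32, SE 0.46; edgeR adjusted p = 0.024), in the direction of SLC25A5. Neither copy would have reached the count filter without the libraries of the group where it was high. Both were also singled out after their values were seen, so their p-values are no support for a change. Whether these reads came from the copies or from transcripts around them was not tested.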
